A study of Mus musculus with 3 samples.

Results

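Cells rich in the primary granule transcripts Elane, Mpo and Prtn3 were examined in liver non-parenchymal cells of mice that carried a mammary tumour. A cell was counted when these 3 genes together made up at least 0.3% of its UMIs (unique molecular identifiers, which count captured RNA molecules) and at least 2 of the 3 were detected. Barcodes under 200 genes, or above 20% mitochondrial UMIs, were left out first. It was met by 1027 of 20913 kept cells, of which 1024 lay in the day 21 library. The study asked how a tumour outside the liver changes the liver. Female BALB/c mice received PBS, or cells of the 4T1 mammary carcinoma line, by orthotopic injection, meaning into the tissue of origin of the tumour. Livers were perfused and dissociated, and the non-parenchymal fraction, the cells other than hepatocytes, was sequenced cell by cell in droplets (10x, 3' ends, version 2 chemistry). The 3 groups were the PBS control (labelled 8 weeks of age), mice 4 days after 4T1 cells (8 weeks) and mice 21 days after 4T1 cells (11 weeks), with 1 library each. No genetic modification was named, and the number of mice in a library and the collection day of the control were not given in the sources used here. Each group being a single library, differences have no check by replicates and none was tested. All intervals are 95% intervals that cover counting error only.

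Primary granules, also called azurophil granules, are packed at the promyelocyte stage, the first stage of granulocyte development at which granules appear, normally in bone marrow. Elane encodes neutrophil elastase and Prtn3 proteinase 3, both serine proteases, and Mpo encodes myeloperoxidase, a haem enzyme that makes hypochlorous acid. Secondary granule proteins such as lactoferrin follow in dividing myelocytes, when transcription of the primary granule genes ends. The granulocyte-monocyte progenitors that precede promyelocytes already transcribe Mpo, Elane and Prtn3, and so do early cells of the monocyte line. The transcription factors CEBPE and GFI1 mark the neutrophil direction, and IRF8 and KLF4 the monocyte direction.

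The libraries held 27191082 (control), 34833820 (day 4) and 51913215 UMIs (day 21), and kept cells had median depths of 4217.5, 4462 and 3144 UMIs. Endothelial cells (at least 3 of 5 sinusoidal markers and in no other class), which check the labelled tissue, numbered 2466 of 4734, 2676 of 5509 and 1587 of 10670 kept cells. Between 13 and 32 barcodes were shared by any pair of libraries, and 2 barcodes of day 21 members also occurred in the control and 2 at day 4. The members at day 21 had a median of 12101.5 UMIs and 3082.5 genes, against 2821 UMIs and 1021 genes in the other 9646 cells of that library. Their median mitochondrial share was 5.58%, against 7.70%. Scrublet, a doublet caller, marked 74 members (7.23%) and 651 other cells (6.75%), which were kept here.

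The 1024 members made up 9.60% (9.04 to 10.2) of kept cells at day 21. The control held 1 such cell (0.0211%, up to 0.118) and day 4 held 2 (0.0363%, up to 0.131). These shares describe what the rule selects. A share of cells does not give the number of such cells per liver, and it moves with how many other cells were recovered.

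Prtn3 was the leading rule gene in most members. It had the most UMIs of the 3 in 801 members (78.2%), Mpo in 199 (19.4%) and Elane in 24 (2.34%). The summed share of the 3 genes ran from 0.3004% to 6.77% of a member's UMIs, with a median of 1.25% and quartiles of 0.634 and 2.35%. All 3 were detected in 936 members (91.4%). Among the other day 21 cells, 7151 of 9646 (74.1%) had 0 UMIs of the 3 genes. Summed over members, and scaled to 1000000 UMIs (CPM), Elane stood at 4430.3, Mpo at 4004 and Prtn3 at 8642 CPM, against 25.9, 62.2 and 185.9 CPM elsewhere at day 21. Endothelial cells, which do not make these proteases, held 14.9 CPM of Elane, 30.3 of Mpo and 36.6 of Prtn3.

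Cells just inside and just outside the limit of the rule held similar levels of Ctsg and differed in lineage genes. Shares of 0.3 to under 0.35% were found in 44 members, and 50 cells with at least 2 of the genes lay just outside, at 0.25 to under 0.3%. Median depths were 9951.5 and 10396.5 UMIs. Ctsg stood at 573 CPM just inside and 581 CPM just outside, and Ms4a3 at 159 and 209 CPM. Camp stood at 8449.5 and 13680.5 CPM and Cebpe at 121 and 205 CPM. The monocyte genes Irf8 (260.5 and 114 CPM) and F13a1 (368 and 237 CPM) were higher just inside, and Cd34 (123 and 224 CPM) just outside. The rule takes a range of cells above a fixed share, not a type.

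The label of promyelocyte-like cells was checked on the primary granule genes Ctsg and Prss57 and on Ms4a3, none of which the rule had used. Ctsg, which encodes cathepsin G, a serine protease of the same granules, had 3411 CPM in members and 65.9 in other day 21 cells (log2 ratio 5.69, 5.64 to 5.75). It was detected in 92.3% of members and 6.56% of the others. Ms4a3, a membrane protein gene of granulocyte-monocyte progenitors, had 1002 and 33.3 CPM (4.91, 4.83 to 4.995) and was detected in 88.2% of members. Prss57, another protease gene of primary granules, had 142 and 8.89 CPM (3.996, 3.83 to 4.17). These markers were thus present. Because they come from the same cells and library that the rule used, the ratios are descriptions.

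Detection was also compared at equal depth, after each cell had been thinned at random to 1000 UMIs, which left out 9 members and 152 endothelial cells. Ctsg was then detected in 73.2% of members (92.3% before thinning) and 1.95% of endothelial cells (4.73% before). Ms4a3 was detected in 49.6% and 0.279% (88.2 and 1.20% before). Stem and progenitor-like cells, which by rule hold at least 3 of 8 progenitor genes and are not members, had Ctsg in 20.3% and Ms4a3 in 3.90%. At full depth 356 of the 1024 members (34.8%) also held at least 3 of these 8 genes. They counted as members because the membership rule was applied first. In the dividing secondary-granule cells, the non-members with at least 0.5% Camp, Ngp and Ltf UMIs and at least 2 of 5 cycling genes, Ctsg was detected in 0.610%, no higher than in endothelial cells, and Ms4a3 in 10.8%.

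The genes listed for primary granules, a list that also holds Ms4a3, went in different directions. Of 14 measured genes of this list, with Ctsg, Ms4a3 and Prss57 among them, 6 were at least 2-fold higher in members than in other day 21 cells and 3 at least 2-fold lower. The median log2 ratio was 0.76, against -0.23 over all 13953 genes with at least 20 UMIs. At this fold, 15.2% of all genes were higher and 32.1% lower. Nkg7, a granule membrane protein gene also known from cytotoxic lymphocytes, had 380 and 59.2 CPM (2.68, 2.61 to 2.76), and Srgn, the proteoglycan that holds proteases in granules, had 1705 and 695 CPM (1.29, 1.27 to 1.32). Cd63, a granule membrane tetraspanin, had 276 and 131 CPM (1.08, 1.02 to 1.14). Lyz2, which encodes lysozyme and is also abundant in monocytes, was lower at 3220.3 and 6904 CPM (-1.10, -1.12 to -1.09). So was the annexin gene Anxa1, at 1045 and 3347 CPM (-1.68, -1.70 to -1.65). The last of the 3 lower genes had the lowest ratio of the list, -2.32.

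**Figure D1:**
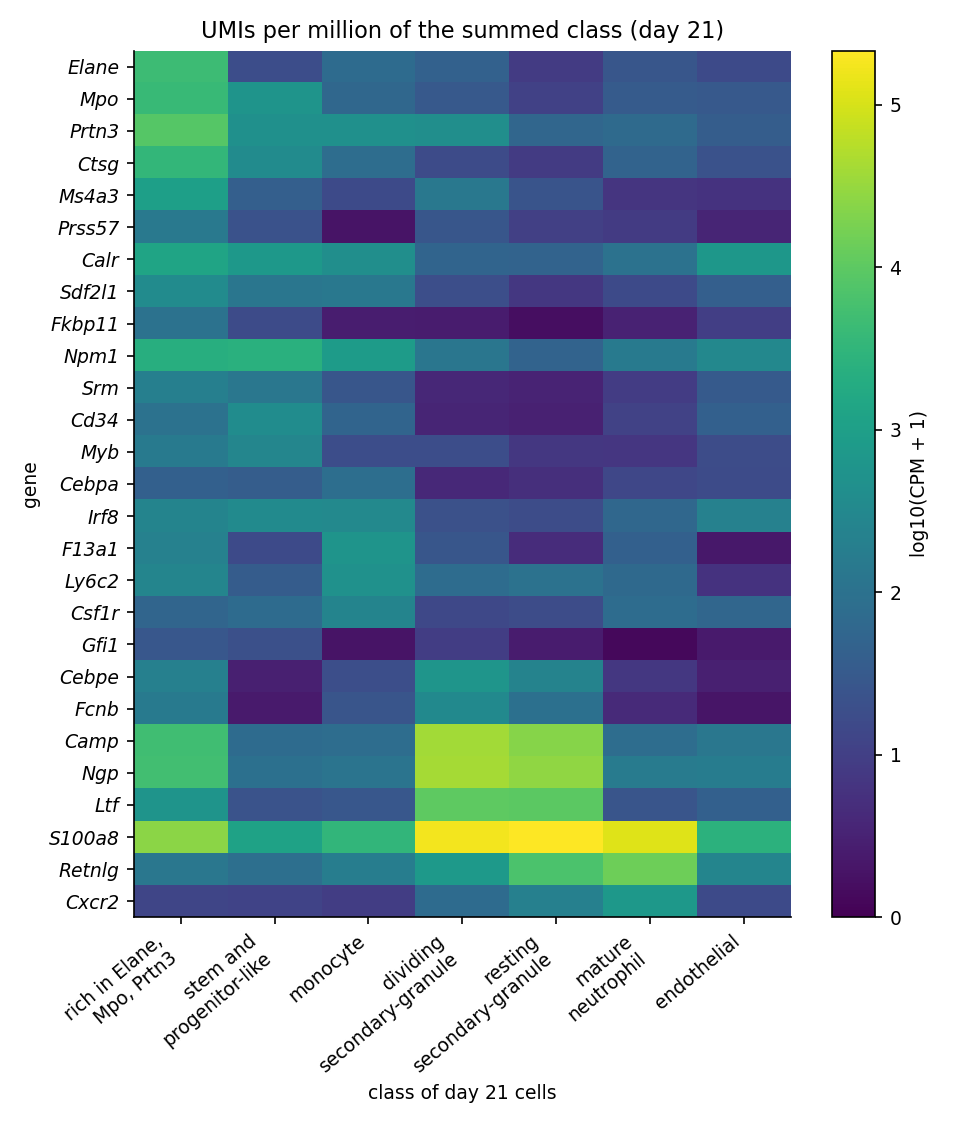
Heat map of 27 genes (rows) in 7 rule-based classes of day 21 cells (columns), with colour giving log10(CPM + 1) of the summed class. Elane, Mpo, Prtn3, Ctsg and Ms4a3 are brightest in the first column, which also carries Irf8, F13a1 and Ly6c2, and Camp, Ngp and Ltf are brightest in the dividing and resting secondary-granule columns.

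Sequence before the gene start is shown for Elane, Ctsg, Ms4a3 and the secondary granule gene Ngp because these genes were high in different ranges of the cells. Windows held the 250 bases before the RefSeq start (GRCm38.p6), read 5' to 3' on the strand of the gene. Bases that lie inside the longer GENCODE gene models of Elane (65) and Ngp (61) are not printed. Capitals mark matches on either strand to AGGAAG, a core letter sequence of ETS family factors such as PU.1, or to TTGCNNAA, letters of C/EBP sites.
Elane (chr10:79886062-79886246, plus strand): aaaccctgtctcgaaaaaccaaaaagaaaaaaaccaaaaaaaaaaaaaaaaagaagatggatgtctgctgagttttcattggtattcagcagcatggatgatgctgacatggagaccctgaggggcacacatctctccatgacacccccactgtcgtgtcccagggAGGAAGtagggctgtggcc
Ctsg (chr14:56102575-56102824, minus strand): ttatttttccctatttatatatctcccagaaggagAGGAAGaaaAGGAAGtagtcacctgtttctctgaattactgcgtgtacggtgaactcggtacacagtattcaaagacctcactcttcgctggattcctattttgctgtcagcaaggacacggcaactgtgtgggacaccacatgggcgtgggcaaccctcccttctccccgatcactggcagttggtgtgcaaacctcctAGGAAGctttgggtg
Ms4a3 (chr19:11640852-11641101, minus strand): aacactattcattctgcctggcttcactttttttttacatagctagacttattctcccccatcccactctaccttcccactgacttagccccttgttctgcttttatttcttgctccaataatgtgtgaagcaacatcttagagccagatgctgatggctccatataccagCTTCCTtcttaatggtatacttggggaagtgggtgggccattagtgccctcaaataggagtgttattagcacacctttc
Ngp (chr9:110419558-110419746, plus strand): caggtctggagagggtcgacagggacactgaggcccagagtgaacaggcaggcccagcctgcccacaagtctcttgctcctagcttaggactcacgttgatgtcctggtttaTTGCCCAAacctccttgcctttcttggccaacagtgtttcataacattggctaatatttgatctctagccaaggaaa
Over the full windows, the AGGAAG letters occurred 1 time in Elane, 84 bases before the RefSeq start, and 3 times in Ctsg and 1 time in Ms4a3. Mpo had 3 matches and Prtn3 2. The secondary granule genes Camp, Ltf and Lcn2 had 2, 1 and 3, and Ngp had 0. By GENCODE gene spans, the Prtn3 window lay wholly inside its gene, as did most of the Mpo and Camp windows. Some matches in these 3 windows therefore lie inside gene models. In all 32851 promoter windows of this length, 29.5% held at least 1 match, 6.25% at least 2 and 1.22% at least 3. TTGCNNAA was in none of the 5 windows of Elane, Mpo, Prtn3, Ctsg and Ms4a3. Ngp had 2 matches, 138 and 11 bases before the start, Ltf and Lcn2 had 1 each, and Camp had 0. Neither motif separated those 5 genes from the secondary granule genes in these 9 windows, which are not all upstream sequence. Over all windows 9.56% held 1 or more. These are matches of letters, and a missing match says nothing about a factor.

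Prtn3 and Elane lie close together, with Prss57 on the same chromosome, while Mpo and Ctsg lie on 2 other chromosomes. In GENCODE M21 (GRCm38) Prtn3 (ENSMUSG00000057729) spans chr10:79874476-79883174 and Elane (ENSMUSG00000020125) chr10:79886247-79888215, both on the plus strand. Mpo (ENSMUSG00000009350) spans chr11:87793581-87804413 on the plus strand and Ctsg (ENSMUSG00000040314) chr14:56099881-56102574 on the minus strand. Prss57 (ENSMUSG00000020323) spans chr10:79781474-79790961 on the minus strand. No other gene on the same strand overlapped any of these genes.

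The members did not form a group of their own. Of 32 Leiden clusters of all kept cells, 3 held 993 of the 1024 members, and each also held many other cells. Cluster 21 had 338 members among 596 day 21 cells, together with 193 cells of the monocyte class (non-members with at least 3 of 7 monocyte genes). Cluster 27 had 416 members among 640, with 187 stem and progenitor-like cells. Cluster 29 had 239 members among 600, with 345 dividing secondary-granule cells. The cells chosen by the rule thus lay beside monocytes, progenitors and dividing neutrophil precursors, and they are called here by their rule genes.

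Neutrophil and monocyte genes split the members. At least 3 of 10 neutrophil commitment genes were detected in 670 members (65.4%, 62.4 to 68.3), and at least 3 of 14 monocyte lineage genes in 626 (61.1%, 58.1 to 64.1). The monocyte share was 11.5% in dividing secondary-granule cells of similar depth (median 10040.0 UMIs) and 12.4% in endothelial cells, at a median of 2692 UMIs. Stem and progenitor-like cells, many of which share cluster 27 with members, reached 46.8% (40.2 to 53.4) at a median of 8300 UMIs. The neutrophil count was met by 21.0% of stem and progenitor-like cells, 18.4% of monocytes and 7.56% of endothelial cells. It was met by 100% of dividing secondary-granule cells, which were partly chosen on these genes. Neutrophil genes only were found in 326 members (31.8%), monocyte genes only in 282 (27.5%), both in 344 (33.6%) and neither in 72 (7.03%). Members with both were the deepest, at a median of 15090.0 UMIs against 10992, 11811 and 6601 in the other groups. Scrublet marked 41 of the 344 members with both. It marked 16 of the 326 with neutrophil genes only, 13 of the 282 with monocyte genes only and 4 of the 72 with neither. The part of depth, of doublets and of free RNA in this overlap was not tested. Secondary granule RNA in particular was widespread, since Camp had a UMI in 12.5% of thinned endothelial cells and in 28.9% of thinned members.

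A stricter neutrophil count gave fewer members with both programmes. With at least 2 of Cebpe, Gfi1 and Fcnb, which were nearly absent from endothelial cells (0 of 1587 cells, up to 0.232%), 416 members (40.6%) counted as neutrophil. Then 498 members (48.6%) had monocyte genes only, 288 (28.1%) neutrophil genes only, 128 (12.5%) both and 110 (10.7%) neither. The monocyte count was left as before, so the change acted on 1 side only. Of the 498, 221 (44.4%) still had at least 3 neutrophil commitment genes, as had 43 of the 110. Thinned to 1000 UMIs, at least 3 monocyte genes were left in 27.2% of members and at least 3 neutrophil commitment genes in 24.5%. The label of promyelocyte-like cells, read as cells of the neutrophil line, therefore covered only part of the members.

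**Figure D2:**
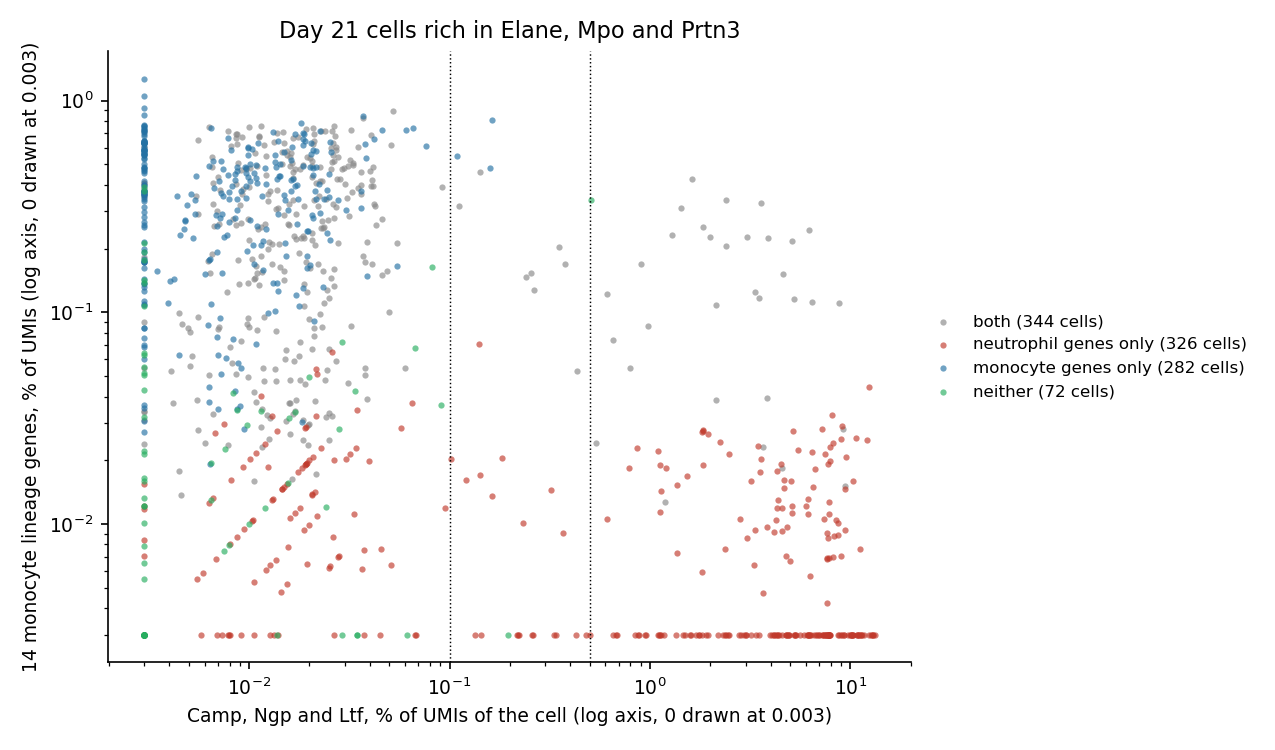
Each point is 1 of the 1024 day 21 members, placed by its share of Camp, Ngp and Ltf UMIs (x axis, percent) and of 14 monocyte lineage genes (y axis, percent), both on log axes with 0 drawn at 0.003. Dotted lines mark shares of 0.1 and 0.5%, and most points to the right of 0.5% are cells with neutrophil genes only (red), while cells with monocyte genes only (blue) lie to the left.

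The members with monocyte genes only and those with neutrophil genes only were chosen on lineage genes, so those genes describe the choice. Irf8, a transcription factor of the monocyte and dendritic line, had 449 CPM in the monocyte group and 4.11 in the neutrophil group, and Klf4 had 169.9 and 1.10. The chemokine receptor gene Ccr2 had 484 and 4.66 CPM, and F13a1, the coagulation factor XIII subunit made by monocytes, 396 and 9.87. In the other direction Cebpe had 22.1 and 535 CPM and Fcnb, a ficolin stored in granules, 17.3 and 435 CPM. Gfi1 had 3.88 and 49.9 CPM.

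Outside the lineage lists, the primary granule genes and Ms4a3 were not equally spread over these groups. Across all genes measured in this comparison, 27.5% were at least 2-fold higher in the monocyte group and 4.48% lower, with a median log2 ratio of 0.63. Mpo was nearly equal, at 3670 and 3930 CPM (log2 ratio -0.10, -0.13 to -0.06). Elane was 4.45-fold lower in the monocyte group (1759 and 7827 CPM) and Prtn3 2.59-fold lower (5196 and 13441 CPM). Ctsg had 2418 and 4195 CPM (-0.79, -0.83 to -0.76) and Ms4a3 450.5 and 1715 CPM (-1.93, -2.01 to -1.85). Prss57 showed a wider gap, at 32.8 and 291 CPM (-3.14, -3.44 to -2.86). Of these, Elane, Mpo and Prtn3 set membership, and a cell low in 2 of them can enter only through the other, so their balance is partly set by the rule. All 6 genes lay below the median of all genes in this comparison.

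Several further genes followed the same split. Cd63 had 33.1 CPM in the monocyte group and 696 in the neutrophil group (-4.39, -4.68 to -4.12), and Serpinb1a, an inhibitor of elastase, cathepsin G and proteinase 3, had 194 and 991 CPM (-2.35, -2.48 to -2.23). Nkg7 had 105 and 731 CPM (-2.79, -2.96 to -2.63). Alas1, the first enzyme of haem synthesis, had 63.2 and 391.8 CPM (-2.63, -2.85 to -2.42). It was the only 1 of 10 haem synthesis genes at least 2-fold lower in the monocyte group, with 0 higher (list median 0.28). Ctsc, which encodes the dipeptidyl peptidase that activates the granule proteases, went the other way at 688 and 25.2 CPM (4.76, 4.47 to 5.09). Of the 14 measured genes of the primary granule list, 7 were at least 2-fold lower in the monocyte group and 4 higher, Ctsc among them. The progenitor surface gene Cd34 had 158 and 27.4 CPM (2.52, 2.22 to 2.85), and Myb, a proto-oncogene of progenitors, was nearly equal at 133 and 136.5 CPM (-0.03, -0.22 to 0.15). Lyz2 was also close, at 3428 and 3747 CPM (-0.13, -0.16 to -0.09).

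The 72 members with neither set of genes were shallower and differed again. They held 5224 CPM of Mpo, 5257 of Ctsg and 1379.6 of Ms4a3, and Cd34 (243 CPM), Myb (360.3 CPM), Cdk6 (439 CPM) and Sox4 (177 CPM), genes of progenitors, were higher there than in the 3 other groups. Lyz2 was 156 CPM, the lowest of the groups. Mcpt8, a protease gene of basophils, stood at 597 CPM there and between 8.13 and 8.94 CPM in the other groups. At least 2 of 4 basophil or mast cell genes were detected in 12 members, 8 of them in this group.

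The members were also divided by their secondary granule share, which overlaps the split above because its 3 genes are among the 10 neutrophil commitment genes. Camp, Ngp and Ltf, which encode cathelicidin, neutrophilic granule protein and lactoferrin, made up under 0.1% of UMIs in 754 members (73.6%), 0.1 to under 0.5% in 32 (3.13%) and at least 0.5% in 238 (23.2%). Few members lay between the low and the high range. By this share Camp was 55.2 CPM in the low range, 653 in the middle and 24393 in the high range. At least 3 monocyte lineage genes were found in 77.3% of the low, 34.4% of the middle and 13.4% of the high range. At least 3 neutrophil commitment genes were found in 405 cells of the low, 28 of the middle and 237 of the high range. Scrublet marked 36 of the 754 low, 6 of the 32 middle and 32 of the 238 high cells, so its calls were not evenly spread. The part of doublets in these ranges was not tested.

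Primary granule transcripts and Ms4a3 did not share a single course over the 3 ranges. Elane stood at 3981 CPM in the low, 10350.2 in the middle and 5425 in the high range, and Prtn3 at 8159, 16217 and 9568 CPM. Mpo was 4491, 4993 and 2058 CPM, and lower in the high than the low range (log2 ratio -1.13, -1.17 to -1.09). Ctsg followed the same order with 3805, 6198 and 1605 CPM (-1.24, -1.29 to -1.20). Ms4a3 stood at 954, 1848 and 1081 CPM. The middle range, which rests on 32 cells, 6 of them marked by Scrublet, had the highest level of each of these 5 genes. S100a8, a calcium-binding protein gene of neutrophils, took 113116 CPM of the high and 2259 of the low range, which leaves less of the sum to other genes. The median log2 ratio of high over low over 10503 genes was -0.88. At least 2-fold, 4% of genes were higher and 43.7% lower in the high range, so Mpo and Ctsg lay only a little below that median.

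Cebpe and later granule genes were higher in the high range. Of 14 measured secondary and tertiary granule genes, 13 were at least 2-fold higher and 0 lower, counting the 3 that set the ranges. Fcnb had 34.6 and 584 CPM (4.07, 3.91 to 4.25) and Chil3, a chitinase-like protein gene, 25.8 and 749 CPM (4.86, 4.67 to 5.05). Cebpe had 88.9 and 614 CPM (2.79, 2.67 to 2.91), and Itgam, the integrin chain CD11b, 16.1 and 122 CPM (2.92, 2.64 to 3.20). Gfi1 was not higher, at 28.3 and 17.6 CPM (-0.68, -1.17 to -0.24). Of 6 NADPH oxidase genes 5 were at least 2-fold higher.

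Ribosome biogenesis and progenitor genes were lower there. All 20 ribosome biogenesis genes were at least 2-fold lower in the high range, with a median of -2.21 that lay well below the -0.88 of all genes. Npm1, a nucleolar chaperone gene, had 2620.3 CPM in the low and 509 in the high range. Of 27 genes of protein folding and secretion in the endoplasmic reticulum (ER), 16 were lower and 0 higher (median -1.22), not far from the 43.7% and -0.88 of all genes, with the calreticulin gene Calr at 1583 and 389 CPM. Of 15 measured stem and progenitor genes 12 were lower (median -2.45), and Cd34 had 129.8 and 9.92 CPM. Mitosis genes differed little, with 0 of 22 past 2-fold and a median of -0.17. S phase genes, those of DNA replication, had a median of -0.60, with 5 of 22 lower, fewer for their number than among all genes.

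**Figure D3:**
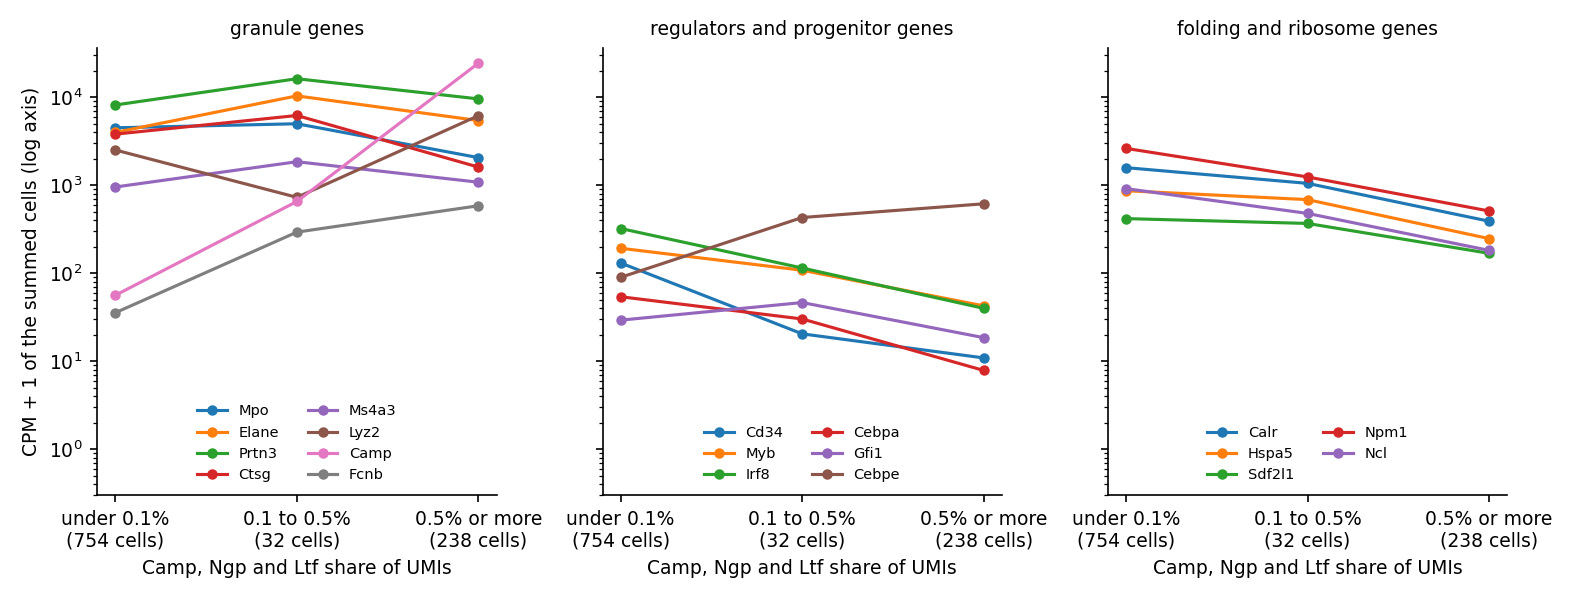
CPM + 1 (log axis) of genes summed over members with under 0.1%, 0.1 to under 0.5% and at least 0.5% of UMIs from Camp, Ngp and Ltf (x axis; 754, 32 and 238 cells). Lines join the 3 values of a gene, and Camp and Cebpe are higher to the right while Cd34, Irf8, Npm1 and Calr are lower.

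Against all other day 21 cells, the members were rich in transcripts of protein production. Of 27 ER folding and secretion genes, 22 were at least 2-fold higher and 0 lower, with a median log2 ratio of 1.47. The highest was Sdf2l1, a component of the ER chaperone complex, with 364 and 51.1 CPM (2.83, 2.76 to 2.91). Creld2, Manf, Calr and Pdia6, which encode ER chaperones and a disulfide isomerase, had ratios of 2.23, 2.19, 2.07 and 2.03. All 20 ribosome biogenesis genes were higher (median 1.79), from 1.002 to 2.49, and Nhp2, a subunit of the box H/ACA particles that modify ribosomal RNA, had 346 and 61.5 CPM (2.49, 2.42 to 2.56). Nuclear genes of the respiratory chain had 13 of 20 higher and 0 lower, with a median of 1.13. In this comparison 15.2% of all genes were higher. The respiratory chain genes set members less apart from 2 like classes. Over stem and progenitor-like cells 0 of 20 were at least 2-fold higher (median 0.41), and over monocytes 2 of 20 (median 0.33), with 0 lower in both. Of the 27 ER genes 7 were higher than in monocytes and 0 lower (median 0.81).

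Cell division genes were also higher. All 22 S phase genes were at least 2-fold higher, with a median of 1.82. Dut, which removes dUTP, had 476 and 93.3 CPM (2.35, 2.29 to 2.41), and Rrm2, a subunit of ribonucleotide reductase, 349 and 76.2 CPM (2.20, 2.13 to 2.26). Of 22 mitosis genes 13 were higher and 0 lower (median 1.09), with Top2a, a DNA topoisomerase, at 313.5 and 158 CPM (0.99, 0.93 to 1.04). At least 2 of 5 cycling genes were detected in 924 members (90.2%). Thinned to 1000 UMIs the share was 30.3% (27.5 to 33.3) in members, 40.04% in dividing secondary-granule cells, 24.2% in stem and progenitor-like cells and 17.6% in monocytes. Endothelial cells showed 1.95% (3.34% before thinning). The dividing class was chosen on these genes, so its share is set by the choice.

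Haem synthesis, which supplies the cofactor of myeloperoxidase, was represented by 10 genes, of which 3 were at least 2-fold higher and 0 lower (median 0.70), where 15.2% of all genes were higher. Alas1 had 219 and 63.2 CPM (1.80, 1.72 to 1.88). Uroporphyrinogen decarboxylase, Urod, had 29.2 and 18.8 CPM (0.64, 0.45 to 0.82). Of 12 glycolysis genes 2 were higher and 0 lower (median 0.64), a count of higher genes near the share over all genes.

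Among regulators, Gfi1 had the largest ratio of 18 granulocyte transcription factors, at 26.5 and 4.55 CPM (2.54, 2.27 to 2.82). Myb had 158.5 and 42.8 CPM (1.89, 1.795 to 1.99) and Myc, a growth regulator, 85.8 and 31.7 CPM (1.44, 1.32 to 1.56). These 3 were the factors at least 2-fold higher, 2 were lower and 13 lay between, with a median of 0.30. That count of higher factors is near the 15.2% of all genes. Cebpe (0.52, 0.45 to 0.59) and Cebpa (0.62, 0.47 to 0.77), which drives entry into the granulocyte line, were among the 13. The lowest was Ets1, abundant in endothelial cells and lymphocytes, at 17.4 and 236 CPM (-3.76, -3.96 to -3.57). In the stem and progenitor list, 4 of 17 measured genes were higher and 4 lower. Cdk6, a kinase of the G1 phase, had 221 and 61.7 CPM (1.84, 1.76 to 1.92) and Cd34 103 and 40.8 CPM (1.33, 1.22 to 1.44).

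Among all genes, the largest ratios over other day 21 cells after Ctsg and Ms4a3 were led by Hsd17b1, a steroid dehydrogenase gene, with 12.2 and 0.426 CPM (4.80, 4.10 to 5.68). Dmkn, which encodes dermokine, a secreted protein best known from skin, had 78.7 and 2.82 CPM (4.796, 4.51 to 5.10) and was detected in 39.2% of members and 0.715% of other cells. Fkbp11, an isomerase gene of the secretory pathway, had 100.1 and 4.61 CPM (4.44, 4.21 to 4.68). Rgcc, a regulator of the cell cycle, had 196 and 12.5 CPM, and Cst7, the cystatin F gene, an inhibitor of cathepsins, 136 and 10.1 CPM (3.75, 3.59 to 3.92). Further down the list were Srm, the spermidine synthase gene (196.6 and 25.003 CPM, 2.97), Timm8a1, of mitochondrial protein import (142 and 20.2 CPM, 2.81), Tmem97, the sigma-2 receptor gene (87.3 and 12.4 CPM, 2.81), and Serpine2, a protease inhibitor gene (13.9 and 2.05 CPM, 2.75). The named list also held Nrg2, Ydjc, Tspoap1, Plppr3, Spata7, Sdf2l1, Kcnk12, Prss57 and Nkg7. Part of the list was shared with stem and progenitor-like cells. Over that class Tmem97 (0.88), Srm (0.60), Timm8a1 (0.49), Spata7 (0.46), Ydjc (0.09), Plppr3 (-0.11) and Kcnk12 (-0.31) stayed within 2-fold. The other genes of the list were at least 2-fold higher in members.

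The lowest ratios belonged to genes of other cell types. Dnase1l3 (11.9 and 389 CPM, -5.03), Gpr182 (7.04 and 202 CPM, -4.83), Maf and Epas1 are abundant in sinusoidal endothelial cells, Ebf1 in B cells, Ccl5 in lymphocytes and C1qa in Kupffer cells. Cd74, the invariant chain of MHC class II, had 21.4 and 592 CPM (-4.78, -4.96 to -4.61). Retnlg, a gene of mature neutrophils, had 132 and 3819 CPM (-4.85, -4.92 to -4.78) and Cd38 3.76 and 115 CPM.

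Late stages of the neutrophil programme were low in members. Of 18 late neutrophil genes, 15 were at least 2-fold lower than in the other day 21 cells and 0 higher (median -2.45). Cxcr2, the receptor for neutrophil-attracting chemokines, had 12.05 and 147 CPM (-3.60, -3.85 to -3.37), Il1b 34.7 and 540 CPM (-3.96, -4.10 to -3.82) and S100a8 26037 and 92839 CPM (-1.83). Of 16 secondary and tertiary granule genes, 13 were lower and 1, Fcnb, was higher (153.5 and 71.9 CPM, 1.09, 1.01 to 1.18). Camp (5061 and 10782 CPM, -1.09) and Ngp (5296 and 12203 CPM, -1.20) were lower in these sums, which a minority of rich cells carry. As a mean over cells the Camp ratio was 0.12, and in members with fewer than 3 monocyte lineage genes the ratios of Camp and Ngp were 0.31 and 0.23. When Leiden clusters 21 and 27 replaced the rule, the ratio of Fcnb was -1.81 and that of Cd63 -0.49.

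Of 20 genes of homing, retention and growth factor receptors, 0 were at least 2-fold higher in members than in other day 21 cells and 8 lower, with a median of -0.89. Over all genes 15.2% were higher and 32.1% lower, so the lower count is near that of all genes. Cxcr4, the receptor for the marrow retention chemokine CXCL12, was level at 92.1 and 91.9 CPM (0.00, -0.09 to 0.10). Csf3r, the receptor of granulocyte colony-stimulating factor, had 33.2 and 164 CPM (-2.31, -2.45 to -2.16) and Itgam 38.2 and 155 CPM (-2.02, -2.16 to -1.89). Kit, the stem cell factor receptor, had 21.4 and 42.7 CPM. Type I interferon genes were lower in 13 of 15 cases (median -2.08), with Isg15 at 8.06 and 47.8 CPM. Of 12 genes used to describe immunosuppressive myeloid cells, 9 were lower and 0 higher (median -2.16), and Il10 had 0 UMIs in members. Arg1, which encodes arginase 1, had 0.548 and 12.97 CPM, and Wfdc17 190 and 2930.3 CPM.

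Monocyte lineage genes as a list were close to all genes. In members 2 of 14 were at least 2-fold higher than in the other day 21 cells and 5 lower (median -0.41), against 15.2% higher, 32.1% lower and a median of -0.23 over all genes. The higher ones were F13a1 (223 and 90.1 CPM, 1.31, 1.24 to 1.38) and Ly6c2, which encodes the Ly6C antigen (265 and 124 CPM, 1.10, 1.04 to 1.16). In members with fewer than 3 monocyte lineage genes, a choice made on these genes, their ratios were -3.24 and -2.37. Irf8 had 258 and 189 CPM (0.45, 0.39 to 0.51). Ctss, cathepsin S, abundant in macrophages, had 55.0 and 287 CPM, and Fn1, fibronectin, 72.0 and 196 CPM.

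**Figure D4:**
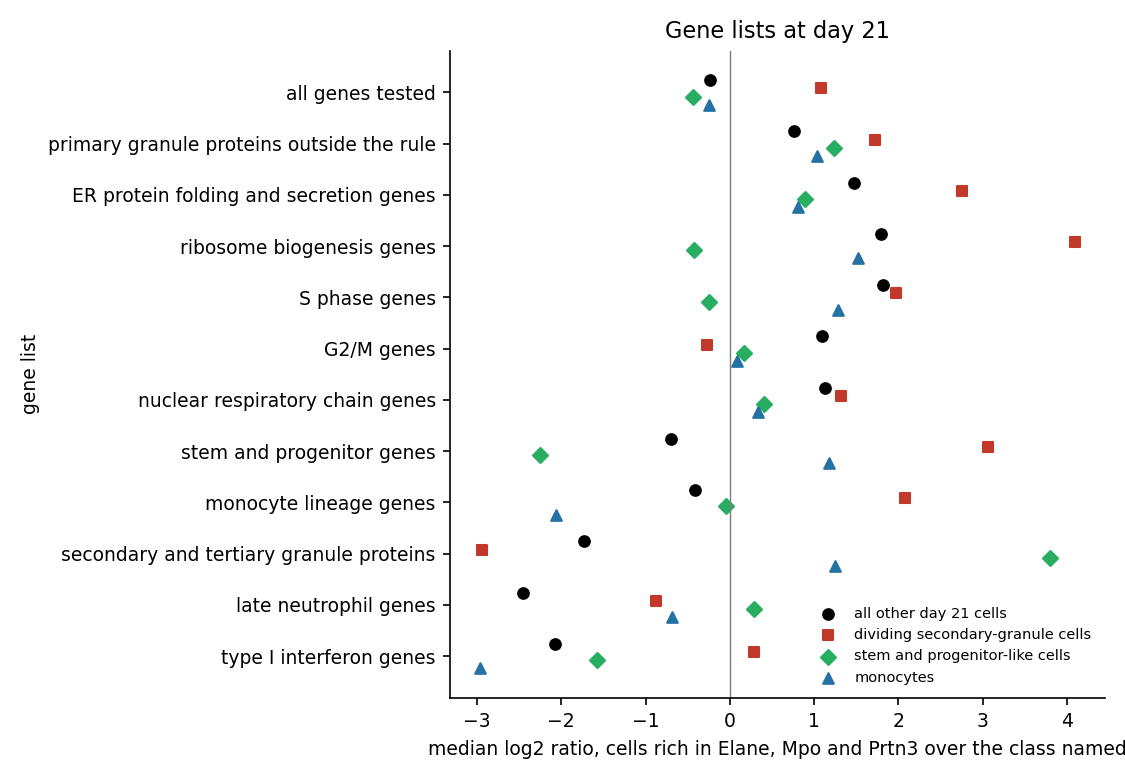
Median log2 ratio (x axis) of 11 gene lists and of all genes tested (rows), members over each of 4 sets of day 21 cells (symbols). The ER folding and the primary granule lists lie to the right of 0 in all 4 comparisons, and the ribosome biogenesis list is farthest right against dividing secondary-granule cells (4.10) and left of 0 against stem and progenitor-like cells (-0.42).

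The 497 dividing secondary-granule cells are the class nearest in median depth, and their thinned share of cycling cells (40.04%) lies farther from that of members (30.3%) than the share in stem and progenitor-like cells does. Their rule required Camp, Ngp and Ltf and excluded the members, so granule genes describe the choice. They spent 177365 CPM on S100a8 and 206993 CPM on S100a9, against 26037 and 33402 in members, which shifts all other CPM values. The median log2 ratio over 10966 genes was 1.08. At least 2-fold, 5793 genes (52.8%) were higher in members and 662 (6.04%) lower, whereas scaling by the median ratio, a shift of 0.84, gave 2991 higher and 1789 lower. Ratios below are therefore read against 1.08.

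Ribosome and secretory genes stood far above that median. All 20 ribosome biogenesis genes were at least 2-fold higher (median 4.10), with Npm1 at 2154 and 125 CPM (4.11). All 27 ER folding and secretion genes were higher (median 2.76), with Calr at 1325 and 50.25 CPM (4.72). S phase genes had 21 of 22 higher (median 1.98), while none of 22 mitosis genes passed 2-fold in either direction (median -0.27). Ube2c, a ubiquitin-conjugating enzyme of mitosis, had 403.5 and 704.5 CPM (-0.80), and Mki67, the Ki-67 antigen, 219 and 299 CPM (-0.45). Mitosis genes thus took similar shares of UMIs in both, which lies below the median of all genes, and S phase genes lay above it.

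Stem and progenitor genes separated the classes as well. Of 15 measured, 14 were higher in members and 0 lower (median 3.07). Cd34 had 103 and 2.61 CPM (5.24), Myc 85.8 and 2.01 CPM (5.35) and Cdk6 221 and 7.84 CPM (4.80). Monocyte lineage genes were higher in 11 of 14 (median 2.08), led by Irf8 at 258 and 20.1 CPM (3.68). In members with fewer than 3 monocyte lineage genes the median of that list was -2.50 and Irf8 -1.66, which follows from the choice. Cebpe was lower in members, at 205 and 602 CPM (-1.56), and Gfi1 higher, at 26.5 and 8.44 CPM (1.64).

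Among the 20 named genes with the largest ratios over dividing secondary-granule cells, 6 had 0 UMIs there. Against a floor of 3 UMIs in the class, Dctd, the deoxycytidylate deaminase gene of nucleotide synthesis, was at least 32.4-fold higher, Ttc27 23.2-fold, Mgl2 21.3-fold and Rpp38, a subunit of ribonuclease P, 16.4-fold. D5Ertd605e was at least 15.96-fold and Top1mt, the mitochondrial topoisomerase, at least 15.2-fold higher. Ctsg led with 3411 and 15.3 CPM (7.79, 7.48 to 8.15), and Phgdh, the first enzyme of serine synthesis, had 173 and 2.21 CPM (6.23, 5.45 to 7.30). Nme4, a mitochondrial nucleoside diphosphate kinase gene, had 42.9 CPM against 1 UMI, or 0.201 CPM (7.15, 5.25 to 13.04), Srm 196.6 and 3.02 CPM (5.98) and Gria3, a glutamate receptor subunit gene, 59.4 and 0.804 CPM (6.04). Pdia5, Nle1, Prmt7, Rab38, Abhd14a, Ydjc, Fkbp11, Cst7 and Dmkn completed the 20. Over stem and progenitor-like cells only Ctsg, Mgl2, Fkbp11, Cst7 and Dmkn of these 20 were at least 2-fold higher in members. Nme4 (-1.13) and Rab38 (-1.72) were at least 2-fold lower than in that class, and the rest lay between.

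Genes of the next maturation step had the lowest ratios. Ly6g, the neutrophil surface antigen, had 41.8 and 881 CPM (-4.40, -4.53 to -4.27), Ltf 562 and 10479 CPM (-4.22), Mmp9, gelatinase B, 15.96 and 223 CPM (-3.80) and Cd177 55.4 and 629 CPM (-3.50). Chil1 had 30.6 and 324 CPM and Inhba, an activin subunit gene, 13.2 and 140 CPM. Plbd1 and the stefin A genes Stfa2, Stfa2l1 and Stfa3, which are near-identical so that their separate counts are uncertain, were the others.

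Against the 233 stem and progenitor-like cells, 4.72% of 11080 genes were at least 2-fold higher in members and 23% lower, with a median of -0.44. Scaled by the median ratio, a shift of -0.41, the counts were 935 higher and 1354 lower in place of 523 and 2551. ER folding and secretion genes were higher in 11 of 27 cases and lower in 0 (median 0.89), with Sdf2l1 at 364 and 122 CPM (1.58) and Manf at 636 and 236 CPM (1.43). Ribosome biogenesis (median -0.42) and S phase genes (median -0.24) lay near the median of all genes. Ctsg stood at 365 CPM in that class. Its levels of Mpo (575 CPM), Prtn3 (482 CPM) and Elane (16.8 CPM) are limited by the rule, which moves cells above its limit to the members, and give no order between these genes. All 17 measured stem and progenitor genes were lower in members (median -2.25), among them genes that had served to choose the class. Alas1 had 219 and 30.8 CPM (2.82), the only 1 of 10 haem synthesis genes at least 2-fold higher (0 lower, median -0.22). Cebpe had 205 and 1.92 CPM (6.57). Of 14 measured secondary and tertiary granule genes, 13 were higher in members and 0 lower (median 3.80).

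Against the 882 monocytes, 9.05% of 11510 genes were at least 2-fold higher in members and 23.6% lower (median -0.24). Under scaling by the median ratio the counts were 1547 higher and 2158 lower, against 1042 and 2712. S phase genes were higher in 17 of 22 cases (median 1.28) and ribosome biogenesis genes in 17 of 20 (median 1.52), and mitosis genes passed 2-fold in 0 of 22 (median 0.09). Monocyte lineage genes, some of which chose the class, were lower in 12 of 14 (median -2.06). Ccr2 had 268 and 1469 CPM (-2.45) and Lyz2 3220.3 and 17824 CPM (-2.47). Ctsc was lower too, at 432 and 1383 CPM (-1.68), and type I interferon genes were lower in 13 of 15 cases (median -2.96).

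Markers of other liver and blood cells were lower in members than in the other day 21 cells, which include the cells that make them. Each of 11 Kupffer, 12 endothelial, 9 stellate, 9 hepatocyte, 10 B cell and 8 basophil and mast cell markers was at least 2-fold lower than in the other day 21 cells. Their summed levels in members were 108, 239, 93.2, 91.5, 39.4 and 134 CPM, against 1935, 3472, 1411, 1139, 527 and 719.6 CPM. Of 12 T and NK cell markers 11 were lower, the exception being Nkg7, which is also in the primary granule list. Of 9 measured erythroid markers 8 were lower, with 376 and 2293 CPM in sum, and 2 of the 10 listed had 0 UMIs in members. Of 10 epithelial tumour markers, 5 had 0 UMIs in members and 9 were detected in under 5% of them. Over stem and progenitor-like cells, whose rule limits some endothelial genes, 6 of 11 measured endothelial markers were higher in members and 2 lower. Of 8 stellate markers 5 were higher and 1 lower, while 10 of 11 Kupffer and 8 of 8 hepatocyte markers were lower. Over dividing secondary-granule cells 7 of 8 basophil and mast cell markers were higher and 1 lower. Whether the levels of these markers in members are free RNA or mixed droplets was not tested.

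The 3 members outside the day 21 library were unlike each other. The control cell had 18178 UMIs, with 165 of Elane, 176 of Mpo, 179 of Prtn3 and 46 of Ctsg, 7 of Irf8 and 0 of Camp, Ngp, Cebpe and Fcnb. The first day 4 cell had 17348 UMIs, with 24 of Elane, 36 of Prtn3 and 0 of Mpo and Ctsg, beside 1203 of Camp, 782 of Ngp and 20 of Cebpe. The second had 37481 UMIs, with 427 of Elane, 321 of Mpo, 575 of Prtn3, 134 of Ctsg, 79 of Ms4a3 and 60 of Mcpt8. Scrublet marked none of the 3. With so few cells no profile of the control or day 4 could be compared with day 21.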

How the data were processed

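Liver non-parenchymal cells of 3 groups were measured in 1 droplet library each. The deposited files hold raw UMI counts per gene and barcode for 31053 genes. Per the file headers, version 3.1.0 of Cell Ranger wrote them. The submitters' processing notes name mm10 as the build. The smallest barcode held 500 UMIs. The cells and gene lists were chosen with earlier results of these data known. Counts were summed per class and given as CPM of the sum. Log2 ratios added 0.5 counts and carry exact conditional binomial intervals, and shares carry Clopper-Pearson intervals. Named genes were the 20 with the largest ratio (at least 50 UMIs, detected in 10% of members) and the 10 with the smallest (at least 100 CPM in the comparison cells), without rule, mitochondrial, ribosomal, haemoglobin, immunoglobulin and unnamed genes, plus members of 32 lists. Doublets were scored with Scrublet and clusters made with Leiden in Scanpy 1.11.5 (2000 genes, 30 components, 15 neighbours, resolution 1). On simulated sums for the comparison with other day 21 cells (13953 genes, 200 changed), 98.5% of changed genes were recovered at 2-fold. Of the unchanged genes 1.22% passed 2-fold. The set changes were all larger than 2-fold and the draws held counting error only. The recovery therefore says nothing about differences between cells, doublets or free RNA. Of the gene IDs, 30934 were found in GENCODE M21.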

Additional observations from a re-analysis of the deposited data

Results flagged for a closer look

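Among the 1668 day 21 barcodes that the cell filter left out, 14 (0.839%, 0.460 to 1.40) met the share rule for Elane, Mpo and Prtn3. The control had 0 of 1755 such barcodes (up to 0.210%) and day 4 had 0 of 3666 (up to 0.101%). Among kept cells of the day 21 library the share was 9.60%, far above that of the barcodes left out. The result was singled out because the signal lies in barcodes that no main comparison used and exceeds that of the control. These barcodes had more than 20% mitochondrial UMIs or fewer than 200 genes. They were not added to the members in the main results. Only the setting without a mitochondrial limit, given below, took in those above 20%.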

How the results depend on the processing

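Of 2644 values past 2-fold recomputed under 16 settings, 2624 kept their direction and 20 reversed. Keeping direction does not mean keeping size. Of gene ratios at any fold, 1431 stayed inside the interval of the main result, 1016 moved out of it and 17 reversed. Of list medians 888 stayed, 261 moved and 3 reversed. Of shares and gene counts 153 stayed within the set limits and 37 moved. The settings without basophil-gene cells and with fewer than 3 monocyte lineage genes, and the neutrophil count by Cebpe, Gfi1 and Fcnb, were added after the data were seen. The share of members at day 21 was 10.6, 7.90 and 5.61% with limits of 0.2, 0.5 and 1%, 8.77% with all 3 genes required, 13.5 and 8.74% with a mitochondrial limit of 10% and with none, 10.8% with at least 500 genes and 11.6% from Leiden clusters, where the control reached 0.148%. With the 1% limit, 69.95% of members were low in secondary granule UMIs, 51.9% had 3 monocyte and 74.3% 3 neutrophil genes, and 348 genes were higher than in stem and progenitor-like cells. Thinning to 1000 UMIs gave 63.9% low in secondary granule UMIs, 27.2% with monocyte, 24.5% with neutrophil and 30.3% with cycling genes. It tests fewer genes, with 3031 higher and 310 lower than in dividing secondary-granule cells, 1014 lower than in stem and progenitor-like cells and 1633 lower than in monocytes. Leiden clusters, which leave out cluster 29, gave 3.24% high and 94.98% low in secondary granule UMIs, 75.2% with monocyte, 45.6% with neutrophil and 84.5% with cycling genes, 3263 genes higher than in other cells, 965 than in stem and progenitor-like cells and 1818 than in monocytes. They reversed Cd63 (-0.49) and Fcnb (-1.81) against other cells and the secondary granule median against stem and progenitor-like cells (-0.029) and monocytes (-0.16). As a mean over cells, the primary granule median against other cells was 0.86, and Camp reversed (0.12). Median-of-ratios scaling gave 2991 higher and 1789 lower than dividing secondary-granule cells, and 935 and 1354 against stem and progenitor-like cells. Members with fewer than 3 monocyte lineage genes gave 1317 genes higher than other cells, 3562 higher than dividing secondary-granule cells and 3979 lower than stem and progenitor-like cells, with a primary granule median of 0.84. In them Camp (0.31), Ngp (0.23), F13a1 (-3.24) and Ly6c2 (-2.37) reversed against other cells. Against dividing secondary-granule cells Ctsc (-1.33), Fcnb (0.17), Irf8 (-1.66), Csf1r (-2.01), F13a1 (-1.41), Klf4 (-2.84), Ccr2 (-2.50), Ly6c2 (-1.67), Ms4a6c (-1.996), Cxcr4 (-0.23) and the monocyte lineage median (-2.50) did so, most of them by the choice of cells. With 2 of Cebpe, Gfi1 and Fcnb as the measure, 40.6% of members had neutrophil genes. Where the construction of a setting does not show it, the cause was not tested. No paired analysis was possible because each group had 1 library, and no replicate could be left out. Depth limits the genes with few UMIs, and no interval covers variation between mice.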
